A study of Mus musculus with 19 samples.

Results

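The genes described here encode the motors of microtubule transport and the proteins that work with them: kinesins and their light chains, cytoplasmic dynein, its activating complex dynactin, dynein regulators, and adaptors that tie motors to cargo. They are the protein-coding genes of the kinesin (Kif and Klc), dynein, dynactin and BICD families together with Pafah1b1, Nde1, Ndel1, Mapk8ip1, Mapk8ip3, Hap1, Trak1, Trak2, Rhot1, Rhot2 and Zfyve27. Of the 12629 genes with values, 49 met this rule, which uses names and not values, although the group was picked with earlier results of these data known. In the annotation, 80 protein-coding genes matched by name; the 31 others, among them Kif3b, Kif17, Kif11 and Dync2h1, were not analysed here.

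RNA came from dorsal root ganglion (DRG) neurons that carried GFP and were isolated by FACS 8 weeks after the left C5 to C8 ganglia had been injected with AAV5. GFP-naive (n = 5) and GFP-crush (n = 4) neurons carried AAV5-CMV-fGFP and are labelled wild-type, whereas α9k1-naive (n = 6) and α9k1-crush (n = 4) neurons carried AAV5-CAG-α9-V5 and AAV5-CMV-kindlin1-GFP and are labelled a9k1 overexpression. These vectors express α9 integrin, a receptor for extracellular matrix proteins, and kindlin-1, which activates integrins. The dorsal roots were crushed in the crush groups only. All 4 groups had thus received AAV5 and GFP, both promoters are active in many cell types, and the sort selected for kindlin1-GFP but not for α9. The sample labels name C57BL/6 mice, and the study's methods name 2-month-old male Lewis rats; the reads were aligned to the mouse genome, 3.87% to 4.05% of aligned bases differed from it, and the species was not tested. The number of animals behind a library is not given in the labels, so the p-values measure the spread between libraries.

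Kinesins move cargo mostly towards the plus ends of microtubules, which in axons point to the growth cone, and cytoplasmic dynein with dynactin moves cargo back to the cell body. A DRG neuron sends one branch of its axon to the periphery and the other through the dorsal root to the spinal cord, and it depends on these motors to deliver membrane proteins, including integrins, and to return signals from sites of injury. The question asked of these genes was whether their mRNA levels differed between α9k1 and GFP neurons, with and without a dorsal root crush.

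Sequencing gave 36.4 to 87.6 M read pairs a library, and the aligned share of reads was 47.5% to 54.1%. The deposited values are log2 values normalised by the authors for gene length and depth, so that the counting error of a single value is unknown. A log2FC is a difference of group means on this scale, here from 1 limma fit to all 19 libraries with 3 covariates of alignment and sequencing quality. A gene is called, or said to have risen or fallen, where its p, adjusted by the Benjamini-Hochberg method across the 12629 genes, was under 0.1. Without the covariates, the log2FC is the plain difference of the group means. The covariates were not independent of the groups: 34.5%, 52.2% and 74.5% of their variance lay between groups. Fermt1 (kindlin-1) and Itga9 were higher in α9k1-naive than in GFP-naive neurons by log2FC = 4.79 (adjusted p = 1.18e-08) and 1.72 (adjusted p = 0.0273). Their levels in the crush groups are not given here, and the part of transgene level in the comparisons below was not tested. All 16 neuronal markers examined were measured, but so were all 10 markers of satellite glia, whose summed level (log2) was 15.6 to 16.0 in GFP-naive, 16.3 to 16.8 in α9k1-naive, 14.8 to 15.0 in GFP-crush and 14.2 to 14.8 in α9k1-crush libraries. Most of that sum is Apoe, with means of 15.6, 16.5, 14.7 and 14.3 in the same order; the next highest marker of the list in GFP-naive, S100b, had 10.5, 10.3, 10.8 and 10.2. The summed level of the neuronal markers was 13.5 to 13.8, 12.9 to 13.2, 14.0 to 14.5 and 14.0 to 14.5 in the same order. In these bulk samples fewer cells of a type and less RNA per cell cannot be told apart, and the part of other cells in the values below was not tested.

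By rank, the mean levels of the members lay between percentiles 9.29 and 99.0 of all genes. Levels of different genes are compared here as deposited, and how well the reads of each gene align to the mouse genome was not tested. Per length, the highest means in GFP-naive libraries were those of Dynll1 (9.98 ± 0.13, SD, n = 5), a small light chain that binds many partners besides dynein, Dynlrb1 (9.57 ± 0.08), the roadblock light chain, and Klc1 (9.11 ± 0.12), the main light chain of kinesin-1 in neurons. The dynactin subunits Dctn2 (8.44 ± 0.10) and Dctn3 (8.08 ± 0.06) followed. The lowest were Klc3 (2.58 ± 0.26) and Dynlrb2 (2.78 ± 0.62). Among the kinesin-1 heavy chains, the motor subunits that pair with light chains, Kif5b (7.72 ± 0.09) lay above Kif5a (6.34 ± 0.36) and Kif5c (5.44 ± 0.20), and the groups of 5 values of the 3 genes did not overlap. Kif1a (7.71 ± 0.12), the carrier of synaptic vesicle precursors, lay above its relative Kif1b (6.06 ± 0.11), and Dync1i1 (7.16 ± 0.16) and Dync1i2 (7.20 ± 0.14), the intermediate chains that link dynein to dynactin, did not differ beyond their spread. In the heat map of all members, the α9k1-crush libraries stand out as the group with most of the high values. The group mean was highest in α9k1-crush in 28 of 49 members (57.1%), against 31.6% of all genes.

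**Figure D1:**
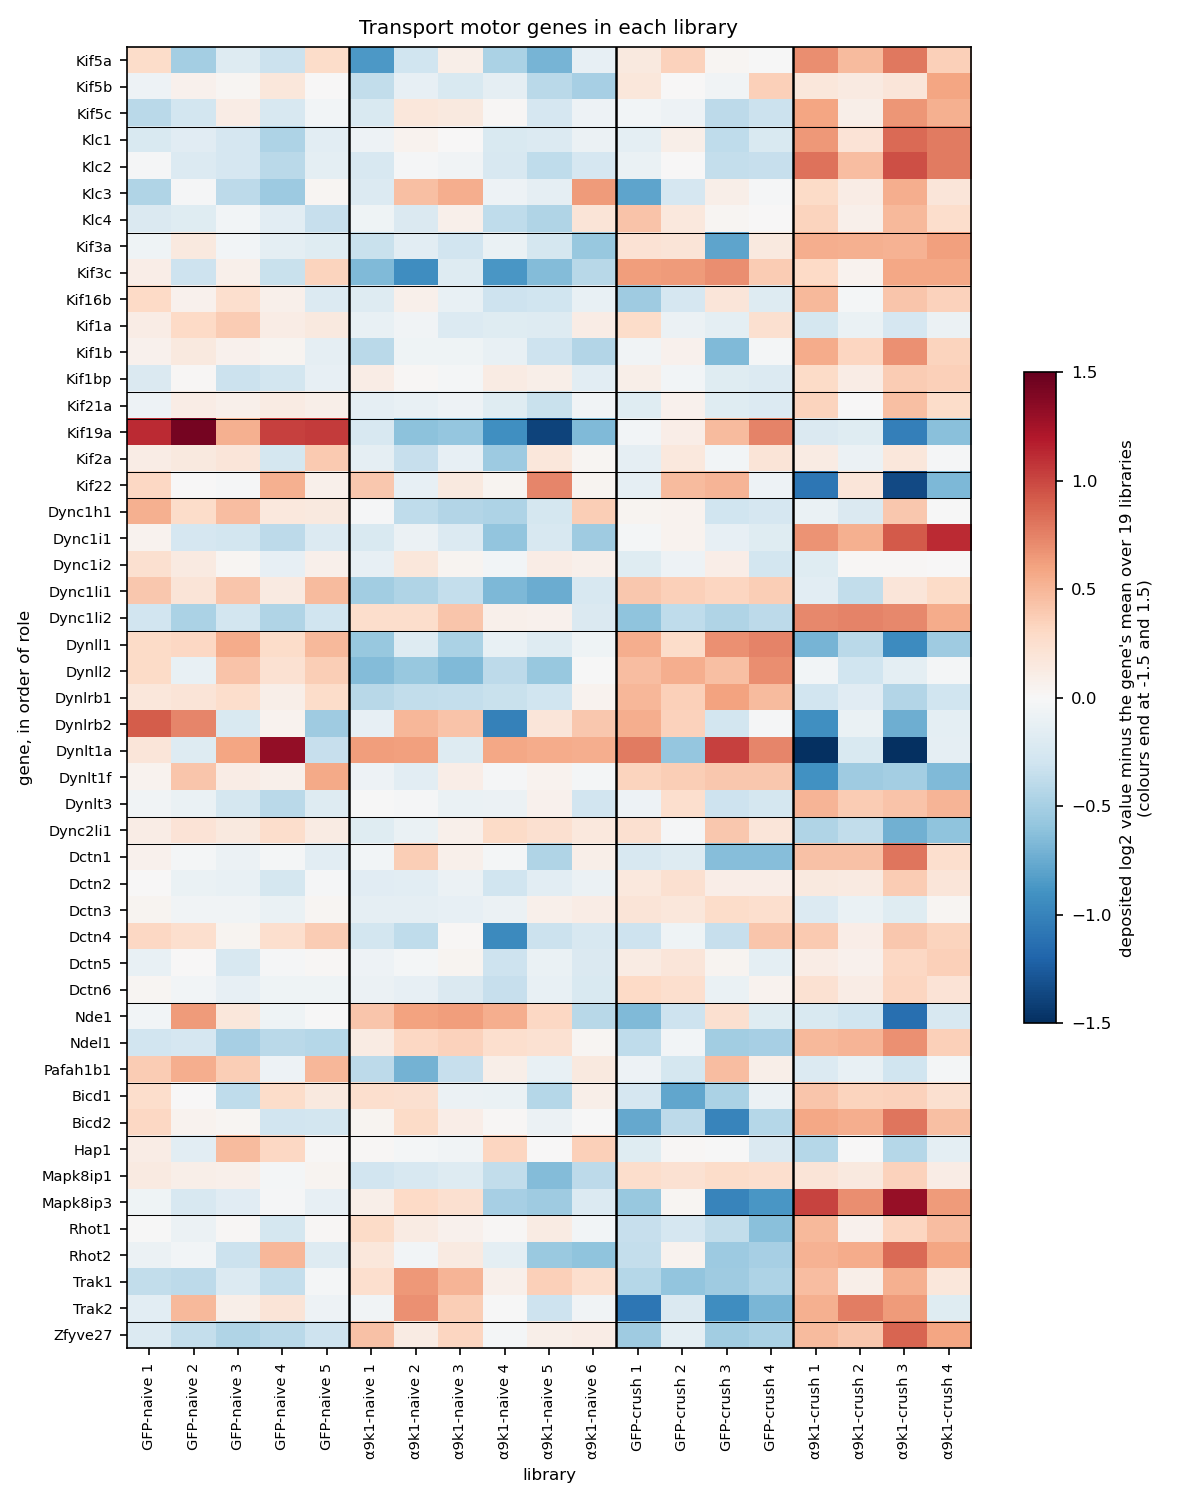
Deposited log2 value of each of the 49 transport motor genes (rows, in order of role) in each of the 19 libraries (columns), minus the gene's mean over all libraries. Red is above and blue below that mean; thick lines divide the 4 groups and thin lines the roles. Klc1, Klc2, Dync1i1 and Mapk8ip3 are red in all 4 α9k1-crush libraries, and Kif19a is blue in all 6 α9k1-naive libraries.

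In neurons that had not been crushed, expression of α9 and kindlin-1 went with higher levels of 5 transport genes and lower levels of 13. The genes that rose were Dync1li2, Ndel1, Trak1, Zfyve27 and Klc3, and those that fell included the kinesins Kif5b, Kif3a, Kif1b and Kif19a, the dynein subunits Dync1li1, Dynll1, Dynll2 and Dynlrb1, and the dynactin subunits Dctn4 and Dctn6. Of all genes, 11.4% were called higher and 17.6% lower, so the 5 of 49 members that rose are near the background share and the 13 that fell are somewhat above it. The median log2FC was -0.16 over the members and -0.08 over all genes. Without covariates 6 members were called higher and 15 lower, where 16.5% and 29.5% of all genes were. In the deposited values 4 members were higher without overlap and 7 lower, against 8.43% and 13.2% of all genes. The plot of log2FC by gene shows both α9k1 comparisons with and without covariates.

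**Figure D2:**
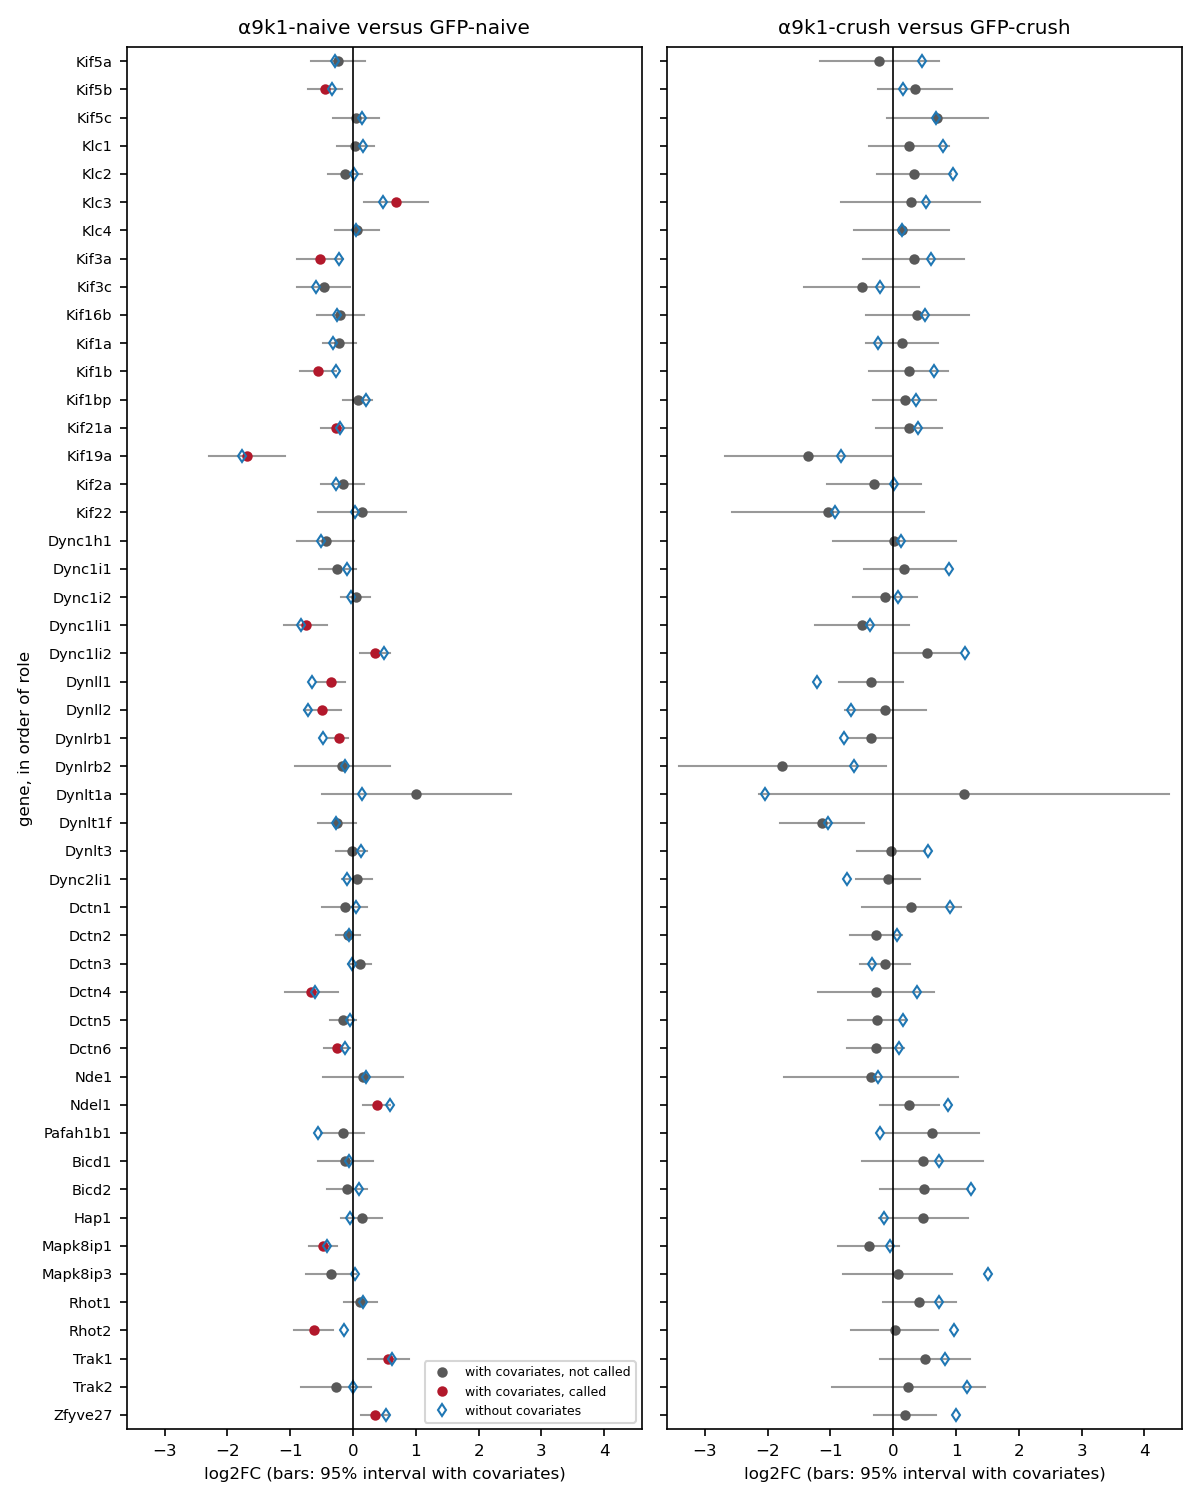
Log2FC of each of the 49 members (rows) in α9k1-naive versus GFP-naive (left) and α9k1-crush versus GFP-crush (right). Circles and bars give the estimate and its 95% interval from the fit with covariates, red where called; open diamonds give the estimate without covariates. On the left 18 circles are red; on the right none is, and the bars are wider.

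The light intermediate chains of dynein, which connect the motor to cargo adaptors, moved in opposite directions. Dync1li2 (chr8:104417674-104443047, minus strand; GRCm38) had values of 6.15, 5.96, 6.17, 5.99 and 6.14 in GFP-naive 1 to 5 and of 6.23 (lowest), 6.61 (median) and 6.86 (highest) in the α9k1-naive libraries. In GFP-crush 1 to 4 it had 5.84, 6.07, 5.99 and 6.05, and in α9k1-crush 1 to 4 it had 7.16, 7.18, 7.17 and 7.0. Every α9k1 library thus lay above every GFP library, with or without crush. Dync1li2 rose in α9k1-naive versus GFP-naive with log2FC = 0.35 ± 0.11 (SE; adjusted p = 0.0371), and the difference of the plain means was 0.50 (exact permutation test, 2-sided, p = 0.00433). The call was lost with only the 2 groups compared (adjusted p = 0.153) and without any one of GFP-naive 2, GFP-naive 4 or α9k1-crush 3 (adjusted p = 0.102, 0.101 and 0.109).

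Its paralogue Dync1li1 (chr9:114688790-114724302, plus strand) fell. The values were 4.79, 4.58, 4.80, 4.52 and 4.86 in GFP-naive 1 to 5 and 3.64 (lowest), 3.89 (median) and 4.15 (highest) in the α9k1-naive libraries. The groups did not overlap, and the log2FC was -0.75 ± 0.16 (adjusted p = 0.00406), a level 0.594 times that of GFP-naive. This call held in all 9 other fits and in all 19 fits that left out 1 library. Within each library, Dync1li2 lay above Dync1li1 by 1.37 ± 0.07 (SD, n = 5) in GFP-naive and by 2.70 ± 0.31 (n = 6) in α9k1-naive. After crush the difference was 1.24 ± 0.13 (n = 4) in GFP and 2.75 ± 0.36 (n = 4) in α9k1 neurons. The lowest α9k1 library, at 2.08, was above the highest GFP library, at 1.47.

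Ndel1 (chr11:68821434-68871858, minus strand), which recruits LIS1 to dynein, was among the members that rose. Its values were 6.67, 6.71, 6.46, 6.56 and 6.53 in GFP-naive 1 to 5 and 6.98 (lowest), 7.20 (median) and 7.31 (highest) in the α9k1-naive libraries. After crush they were 6.57, 6.91, 6.44 and 6.46 in GFP-crush 1 to 4 and 7.44, 7.47, 7.64 and 7.32 in α9k1-crush 1 to 4. The lowest α9k1 library was above the highest GFP library, which was GFP-crush 2. The log2FC without crush was 0.38 ± 0.10 (adjusted p = 0.0152), and without α9k1-naive 6 it was 0.29 (adjusted p = 0.188). Its relative Nde1 had means of 3.27 ± 0.29 and 3.48 ± 0.39 (log2FC = 0.16, adjusted p = 0.746). Pafah1b1, which encodes LIS1, had 5.64 ± 0.24 and 5.07 ± 0.32 (adjusted p = 0.501 with covariates and 0.0094 without).

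Trak1 (chr9:121297502-121474918, plus strand), the adaptor that joins mitochondria to kinesin-1 and dynein, had values of 3.52, 3.51, 3.69, 3.54 and 3.86 in GFP-naive 1 to 5. In the α9k1-naive libraries it had 3.97 (lowest), 4.20 (median) and 4.54 (highest). The groups did not overlap, and Trak1 rose with log2FC = 0.56 ± 0.15 (adjusted p = 0.0174). Its paralogue Trak2 had the same mean of 4.27 in both groups (adjusted p = 0.483). Of the Miro proteins, which anchor Trak proteins on mitochondria, Rhot1 had 5.98 ± 0.12 and 6.14 ± 0.11 (adjusted p = 0.536). Rhot2 was called lower (log2FC = -0.63 ± 0.15, adjusted p = 0.00724), but this call rests on the covariates. Its plain means were 4.74 ± 0.31 and 4.59 ± 0.34, the values overlapped, the difference was -0.15 (exact permutation test, 2-sided, p = 0.481), and 38.0% of its 75-base transcript words occur in another gene.

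Zfyve27 (chr19:42163951-42194590, plus strand) encodes protrudin, which binds KIF5 and moves endosomes and endoplasmic reticulum into growing processes. It had values of 6.27, 6.12, 6.02, 6.07 and 6.17 in GFP-naive 1 to 5 and 6.45 (lowest), 6.60 (median) and 6.92 (highest) in the α9k1-naive libraries. In GFP-crush 1 to 4 it had 5.95, 6.33, 5.95 and 6.00, and in α9k1-crush 1 to 4 it had 6.95, 6.88, 7.35 and 7.07. Again every α9k1 library was above every GFP library. Zfyve27 rose without crush with log2FC = 0.35 ± 0.11 (adjusted p = 0.0294). The call was lost without α9k1-naive 6 (log2FC = 0.16, adjusted p = 0.491).

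Of the members, 11 were called and did not overlap between α9k1-naive and GFP-naive libraries, and the promoters of the 6 with an entry are shown: those of Ndel1, Zfyve27 and Trak1, which rose, and of Dync1li1, Dynll1 and Dynlrb1, which fell. RefSeq (GRCm38.p6) gave an entry for 37 of the 49 members; Dync1li2 is among the 12 without one. Each sequence runs 5′ to 3′ from 250 bases before to 50 bases after the annotated start, and capitals mark a motif where one was found. The starts given for Ndel1, Zfyve27 and Trak1 lie well inside the span of the gene in the annotation. For Trak1 the last of 4 entries is shown, the only one with a motif, and for Dynlrb1 the first of 2. The Trak1 entry at the annotated start of the gene (chr9:121297252-121297551) has no motif. Ndel1 is chr11:68853086-68853385, minus strand; Zfyve27 is chr19:42170317-42170616, plus strand; Trak1 is chr9:121403196-121403495, plus strand; Dync1li1 is chr9:114688581-114688880, plus strand; Dynll1 is chr5:115300941-115301240, minus strand; Dynlrb1 is chr2:155236283-155236582, plus strand.
Ndel1: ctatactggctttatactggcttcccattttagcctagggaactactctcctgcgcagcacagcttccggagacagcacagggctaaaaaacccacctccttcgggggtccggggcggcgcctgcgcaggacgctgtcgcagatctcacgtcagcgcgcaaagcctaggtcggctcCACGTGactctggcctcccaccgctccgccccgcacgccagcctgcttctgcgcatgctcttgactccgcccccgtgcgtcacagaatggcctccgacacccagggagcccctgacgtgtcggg
Zfyve27: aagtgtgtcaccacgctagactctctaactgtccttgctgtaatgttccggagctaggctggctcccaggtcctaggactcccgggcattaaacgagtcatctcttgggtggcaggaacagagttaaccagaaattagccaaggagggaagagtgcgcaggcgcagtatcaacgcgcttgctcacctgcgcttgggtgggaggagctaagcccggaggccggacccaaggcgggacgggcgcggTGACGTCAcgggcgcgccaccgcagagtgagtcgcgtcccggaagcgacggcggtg
Trak1: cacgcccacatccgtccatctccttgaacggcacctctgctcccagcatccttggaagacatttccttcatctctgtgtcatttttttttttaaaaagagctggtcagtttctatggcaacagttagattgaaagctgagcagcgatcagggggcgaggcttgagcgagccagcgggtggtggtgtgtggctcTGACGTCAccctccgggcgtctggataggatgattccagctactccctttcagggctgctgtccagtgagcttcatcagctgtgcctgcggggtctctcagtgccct
Dync1li1: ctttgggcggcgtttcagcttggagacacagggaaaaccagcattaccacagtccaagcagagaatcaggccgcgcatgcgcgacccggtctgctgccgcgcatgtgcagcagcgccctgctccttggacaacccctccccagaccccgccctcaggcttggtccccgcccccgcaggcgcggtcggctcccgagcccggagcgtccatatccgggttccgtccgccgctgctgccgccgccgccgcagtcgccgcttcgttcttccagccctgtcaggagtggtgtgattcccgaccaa
Dynll1: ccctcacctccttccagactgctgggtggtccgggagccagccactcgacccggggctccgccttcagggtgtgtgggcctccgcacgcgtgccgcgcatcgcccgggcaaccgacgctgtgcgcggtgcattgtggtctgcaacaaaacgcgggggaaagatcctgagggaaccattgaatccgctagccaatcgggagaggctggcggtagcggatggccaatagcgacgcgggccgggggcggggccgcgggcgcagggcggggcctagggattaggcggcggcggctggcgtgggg
Dynlrb1: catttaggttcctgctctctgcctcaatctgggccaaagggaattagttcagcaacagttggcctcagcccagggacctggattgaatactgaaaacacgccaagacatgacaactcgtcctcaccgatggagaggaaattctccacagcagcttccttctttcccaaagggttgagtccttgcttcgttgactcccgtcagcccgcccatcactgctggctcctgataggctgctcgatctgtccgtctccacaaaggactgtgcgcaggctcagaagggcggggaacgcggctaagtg

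Both strands were searched for 3 motifs, which were chosen after the values were seen. The 37 members with an entry have 47 promoters, since some have several starts. The cAMP response element (CRE, TGACGTCA) was found for 5 of the 37 members, Zfyve27, Trak1, Dctn3, Kif5c and Klc1, and in 1.79% of all 32851 promoters. The E-box CACGTG was found for 3 of the 37, Ndel1, Kif1a and Klc4 (7.15% of all promoters), and the AP-1 site TGANTCA for none of them (7.81% of all). The counts are of genes, some with several promoters, and the shares are of promoters, so they cannot be compared directly. None of the 3 motifs contains another. A match is a description of the mouse reference, and no binding was measured.

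The kinesins that fell came from several families. Kif19a, which shortens microtubules at their plus ends, fell most. Its values were 4.95, 5.27, 4.37, 4.86 and 4.88 in GFP-naive 1 to 5 and 2.45 (lowest), 3.19 (median) and 3.60 (highest) in the α9k1-naive libraries, with no overlap. The log2FC was -1.69 ± 0.28 (adjusted p = 0.000643), a level 0.311 times that of GFP-naive. After crush, GFP libraries 1 to 4 had 3.79, 3.94, 4.32 and 4.58 and α9k1 libraries 1 to 4 had 3.62, 3.65, 2.81 and 3.21, again without overlap. The call without crush held in all 9 other fits and all 19 fits that left out 1 library.

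Kif5b fell from 7.72 ± 0.09 to 7.38 ± 0.15 (n = 5 and 6; log2FC = -0.44 ± 0.13, adjusted p = 0.0218), and the highest α9k1-naive value of 7.55 was below the lowest GFP-naive value of 7.60. The Kif5b call was lost without α9k1-naive 6 (log2FC = -0.35, adjusted p = 0.219). Kif1b fell with log2FC = -0.56 ± 0.14 (adjusted p = 0.00844) and Kif3a, the motor of kinesin-2, with -0.52 ± 0.17 (adjusted p = 0.043), although the values of both overlapped. For Kif3a the plain difference was -0.23, and the call was lost without covariates (adjusted p = 0.241), without α9k1-naive 6 (0.116) and without GFP-naive 2 (0.11). Kif21a, which restrains microtubule growth, was at the edge of the threshold (log2FC = -0.28 ± 0.11, adjusted p = 0.0981), and its call was lost in 16 of the 19 fits that left out 1 library. Kif5a (6.34 ± 0.36 and 6.04 ± 0.36), Kif5c (5.44 ± 0.20 and 5.58 ± 0.18), Kif1a (7.71 ± 0.12 and 7.39 ± 0.12) and Kif2a (3.22 ± 0.24 and 2.94 ± 0.26) were not called. Kif3c had 4.47 ± 0.29 and 3.87 ± 0.28 and just missed the threshold (adjusted p = 0.106). Of the kinesin light chains only Klc3 was called, and higher (2.58 ± 0.26 and 3.06 ± 0.38; log2FC = 0.69 ± 0.24, adjusted p = 0.0522), at a low level with overlapping values. The Klc3 call was lost without any one of α9k1-naive 6 (log2FC = 0.48, adjusted p = 0.372), GFP-naive 1 (adjusted p = 0.143) or GFP-crush 3 (adjusted p = 0.101). Its exons overlap those of Ercc2, and 12.8% of its 75-base words occur in that gene.

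Of the 7 dynein light chains, 3 fell. Dynll1 had 9.88, 9.91, 10.15, 9.88 and 10.08 in GFP-naive 1 to 5, and 9.03 (lowest), 9.40 (median) and 9.53 (highest) in the α9k1-naive libraries. In GFP-crush 1 to 4 it had 10.14, 9.87, 10.29 and 10.34, and in α9k1-crush 1 to 4 it had 8.90, 9.20, 8.65 and 9.07. No α9k1 library reached the lowest GFP library, and the same held for Dynlrb1, with α9k1 libraries at 8.93 to 9.43 and GFP libraries at 9.46 to 9.99. The log2FC without crush was -0.36 ± 0.11 for Dynll1 (adjusted p = 0.0303) and -0.23 ± 0.07 for Dynlrb1 (adjusted p = 0.0372). Dynll2 fell with -0.49 ± 0.14 (5.14 ± 0.21 and 4.43 ± 0.25; adjusted p = 0.0212). Without α9k1-naive 6 the call of Dynll1 was lost (log2FC = -0.18, adjusted p = 0.455), and that of Dynlrb1 was lost without α9k1-crush 3 (adjusted p = 0.102) and with median-centred libraries (adjusted p = 0.118). Dynlt3 was at 7.98 ± 0.14 and 8.10 ± 0.12 (adjusted p = 0.917). Dynlt1a and Dynlt1f share 60.0% and 89.2% of their 75-base words with other genes, mostly each other and further Dynlt1 copies, and their values are uncertain.

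Among the dynactin subunits, Dctn4, part of the pointed-end complex, fell from 5.26 ± 0.13 to 4.66 ± 0.32 without overlap (log2FC = -0.66 ± 0.20, adjusted p = 0.0275). Without GFP-naive 4 this call was lost (adjusted p = 0.138). Dctn6 was called lower (log2FC = -0.26 ± 0.10, adjusted p = 0.0743), but its values overlapped, and the call was lost without covariates (adjusted p = 0.21), with median-centred libraries (0.206), with the trends of GC content and length removed (0.103) and in 6 of the 19 fits that left out 1 library. Those libraries were GFP-naive 1 and 4, α9k1-naive 4, GFP-crush 2 and 3, and α9k1-crush 3 (adjusted p up to 0.181). Dctn1, the p150Glued subunit that binds dynein and microtubules, was at 6.62 ± 0.08 and 6.67 ± 0.27 (adjusted p = 0.612), and Dctn2, Dctn3 and Dctn5 were not called. The dynein heavy chain Dync1h1, the motor itself, was at 5.77 ± 0.18 and 5.26 ± 0.32 (log2FC = -0.44 ± 0.21, adjusted p = 0.156). Dync1i1 (7.16 ± 0.16 and 7.05 ± 0.20) and Dync1i2 (7.20 ± 0.14 and 7.17 ± 0.10) were not called. Mapk8ip1 (JIP1), a scaffold that binds kinesin-1 and JNK, fell from 6.44 ± 0.06 to 6.02 ± 0.16 without overlap (log2FC = -0.48 ± 0.10, adjusted p = 0.00409), whereas its relative Mapk8ip3 (JIP3; 5.93 ± 0.08 and 5.96 ± 0.37) and Hap1 (3.45 ± 0.25 and 3.41 ± 0.18) were not called. Neither of the BICD adaptors, Bicd1 (4.32 ± 0.27 and 4.25 ± 0.26) and Bicd2 (3.49 ± 0.25 and 3.58 ± 0.13), was called.

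Some facts of the libraries moved with this comparison. Of 8 measured markers of endothelial cells and fibroblasts all 8 were called lower in α9k1-naive (median log2FC = -2.03; summed level 6.87 to 8.36, against 9.57 to 9.89 in GFP-naive), and of 10 Schwann cell markers 8 were lower and 1 higher (median log2FC = -1.26; summed level 11.7 to 12.1, against 13.1 to 13.5). Of 10 measured macrophage markers 7 were higher (median log2FC = 1.13; summed level 9.09 to 9.67, against 7.81 to 8.32), and of 10 satellite glia markers 3 were higher and 1 lower (median log2FC = 0.14). Of 16 neuronal markers 1 was higher and 4 lower (median log2FC = -0.17). Of 8 measured markers of dividing cells 1 was higher and 1 lower. Pecam1, Cdh5, Kdr, Pdgfra, Cx3cr1 and Itgam are not among the genes with values. The part of these cells in the differences above was not tested. With α9k1-naive 6 left out, 3 members were called higher and 12 lower, but 6 of the 18 calls were lost: those of Kif5b, Kif3a, Klc3, Dynll1, Ndel1 and Zfyve27. Of the 12629 genes, 1130 were then called higher and 1507 lower, against 1445 and 2224 with all libraries. The library α9k1-naive 6 aligned 49.5% of its reads, against 51.9% to 54.1% in the other 5 of its group. The intronic share of bases was 2.04% to 2.32% in GFP-naive libraries, 1.54% to 1.68% in α9k1-naive 1 to 5 and 2.26% in α9k1-naive 6. The ratio of 5′ to 3′ coverage was 0.634 to 0.651, 0.669 to 0.69 and 0.607 in the same order. The part of these measures in the differences was not tested beyond their place among the covariates.

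**Figure D3:**
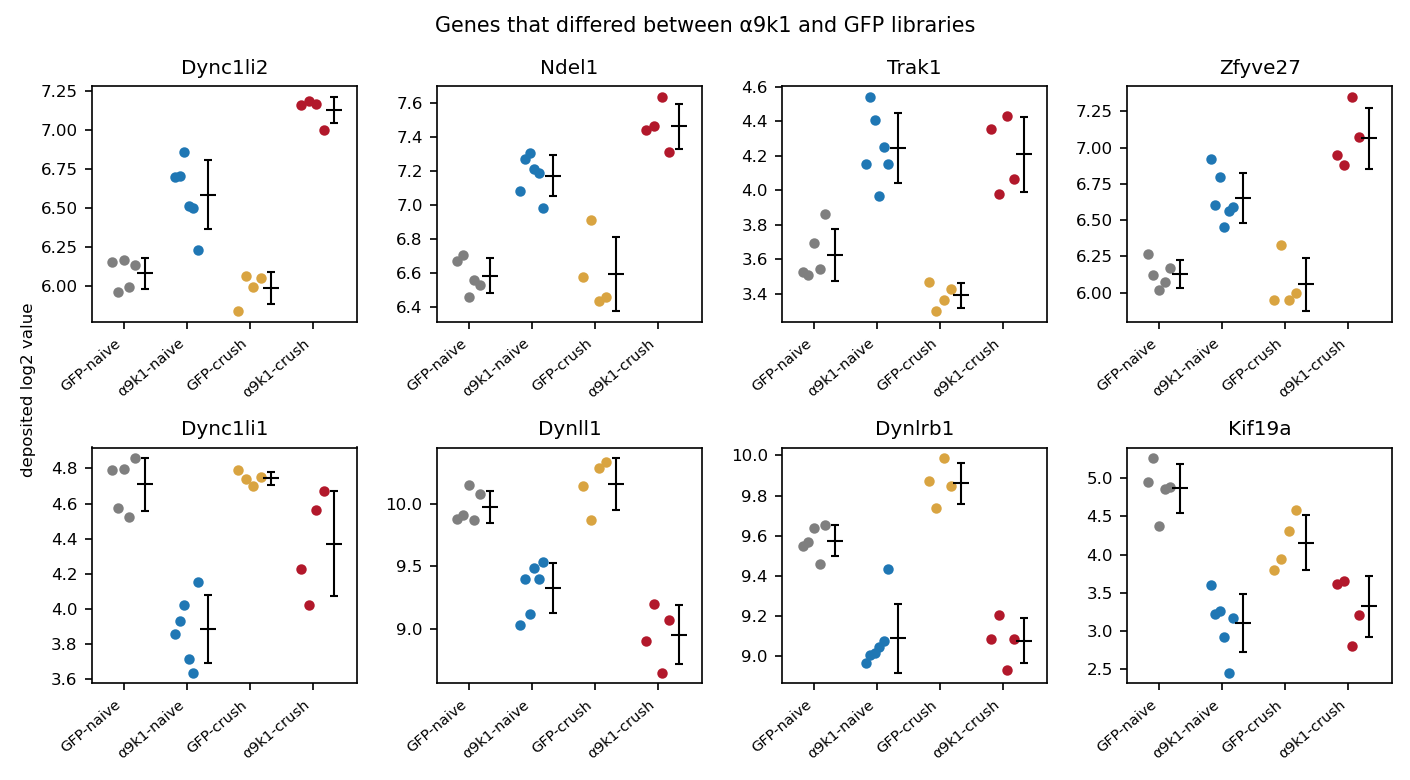
Deposited log2 values of 8 members in each library by group, with the group mean and SD beside the points (n = 5, 6, 4 and 4). For Dync1li2, Ndel1, Trak1 and Zfyve27 all 10 α9k1 points lie above all 9 GFP points; for Dynll1, Dynlrb1 and Kif19a they all lie below; for Dync1li1 they lie below within each condition.

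The 7 genes whose α9k1 and GFP libraries separated in both conditions at once were Dync1li2, Ndel1, Trak1 and Zfyve27, which were higher in α9k1 neurons, and Dynll1, Dynlrb1 and Kif19a, which were lower. Of all genes, 2.23% separated in this way with higher and 3.04% with lower values, against 4 of 49 (8.16%) and 3 of 49 (6.12%) of the members. With median-centred libraries Ndel1 and Dynlrb1 no longer separated, and with the trends of GC content and length removed Zfyve27 and Dynlrb1 no longer did.

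After dorsal root crush, no member was called between α9k1 and GFP neurons by limma with covariates, and of all genes 0.728% were called higher and 0.182% lower. At an unadjusted p under 0.05 there were 5 members (10.2%), near the 9.11% of all genes: Dync1li2 (log2FC = 0.54 ± 0.25, adjusted p = 0.538), Kif19a (-1.35 ± 0.62, adjusted p = 0.538), Dynlrb1 (-0.36 ± 0.16, adjusted p = 0.534), Dynlrb2 (-1.77 ± 0.77, adjusted p = 0.522) and Dynlt1f (-1.14 ± 0.31, adjusted p = 0.187). The estimates were less precise here. With the covariates, the variance of this contrast was 3.11 in units of the residual variance, against 0.50 without them. Without GFP-naive 1, there was 1 member called lower. Without the covariates, 24 members were called higher and 11 lower, where 29.6% and 28.3% of all genes were called. The part of the vectors and that of the quality measures cannot be told apart in this design. Of the marker genes only Egr2, of the Schwann cell list, was called; without covariates 6 neuronal markers were higher and 3 lower, 2 of satellite glia higher and 5 lower, and 2 of Schwann cells higher and 6 lower. Of 8 markers of dividing cells 5 were then higher and 1 lower, of macrophages 2 higher and 1 lower, and of endothelial cells and fibroblasts 1 higher and 2 lower. Their part in the result was not tested.

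In the deposited values the α9k1-crush and GFP-crush libraries did not overlap for 29 members, 21 higher and 8 lower in α9k1-crush, where 20% of all genes were higher and 20.8% lower without overlap. The intronic share of bases did not overlap between these groups either, at 1.35% to 1.62% in α9k1-crush and 2.11% to 2.93% in GFP-crush libraries, and their depth was 47.6 to 83.6 M and 41.0 to 52.6 M read pairs. With the trends of GC content and length removed the split was 16 higher and 12 lower (15.9% and 19.4% of all genes), and with median-centred libraries 14 and 8 (15.9% and 24.7%). Mapk8ip3, a JNK scaffold that binds kinesin-1 and dynein, differed most among those that were higher. It had 5.49, 6.09, 5.06 and 5.18 in GFP-crush 1 to 4 and 7.07, 6.75, 7.36 and 6.70 in α9k1-crush 1 to 4. The plain difference was 1.51 (exact permutation test, 2-sided, p = 0.0286, the smallest p that 4 against 4 libraries can give). Every member without overlap here has this p, so it adds nothing to the lack of overlap. With covariates the log2FC was 0.07 ± 0.41 (95% interval -0.80 to 0.94).

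Of the mitochondrial adaptors, Trak1, Trak2, Rhot1 and Rhot2 were each higher in all 4 α9k1-crush than in all 4 GFP-crush libraries, as 20% of all genes were, with plain differences of 0.82, 1.17, 0.73 and 0.97. Trak2 overlapped with median-centred libraries, with quantile normalization and with the trends of GC content and length removed, and the other three did not. With covariates their log2FC were 0.51, 0.24, 0.42 and 0.02, and none was called. Both BICD adaptors, which link dynein to vesicles, also separated (Bicd1 by 0.73 and Bicd2 by 1.24), and so did the light chains Klc1 (0.79), Klc2 (0.95) and Klc3 (0.52). Of the dynein light chains 4 separated with lower values, Dynll1 (-1.21), Dynlrb1 (-0.78), Dynll2 (-0.66) and Dynlt1f (-1.03), and Dynlt3 with higher values (0.56). Dctn1 (0.91) was higher and Dctn3 (-0.34) lower, and the other 4 dynactin subunits overlapped. The interval of the log2FC with covariates reached 0 or beyond for all of these but Dynlrb1 (-0.70 to -0.01) and Dynlt1f (-1.80 to -0.47).

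Between the GFP groups, crush was followed by 2 members called higher and 5 called lower, where 7.39% and 15.7% of all genes were called. Kif3c, a kinesin-2 motor known for its role in growing axons, had 4.59, 4.18, 4.57, 4.16 and 4.83 in GFP-naive 1 to 5 and 5.11, 5.13, 5.19 and 4.88 in GFP-crush 1 to 4. The groups did not overlap, and Kif3c rose with log2FC = 0.57 ± 0.20 (adjusted p = 0.0694); 41.6% of its 75-base words lie in antisense genes, from which reads could not be separated without strand. Dctn2 (dynamitin) rose from 8.44 ± 0.10 to 8.69 ± 0.06 without overlap (log2FC = 0.27 ± 0.09, adjusted p = 0.0558). The genes called lower were Trak2 (4.27 ± 0.25 and 3.44 ± 0.38; log2FC = -0.72 ± 0.26, adjusted p = 0.079), Bicd2 (3.49 ± 0.25 and 2.88 ± 0.28; -0.45 ± 0.15, adjusted p = 0.0626), Rhot1 (5.98 ± 0.12 and 5.64 ± 0.16; -0.36 ± 0.13, adjusted p = 0.0692), Pafah1b1 (5.64 ± 0.24 and 5.35 ± 0.31; -0.47 ± 0.16, adjusted p = 0.0668) and Kif19a (4.87 ± 0.32 and 4.16 ± 0.36; -0.79 ± 0.29, adjusted p = 0.076).

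The direction of this comparison depended on the scaling. The median log2FC of all genes was -0.08 on the deposited values and 0.06 after median-centring, and the lower calls of all 5 members were then lost, as they were with quantile normalization and with the trends of GC content and length removed. Without covariates, 5 members were called higher and 7 lower on the deposited values, where 11% and 20.1% of all genes were. With covariates, the split of higher and lower calls was 7 and 0 with median-centring (14.5% and 9.34% of all genes), 1 and 0 with quantile normalization (9.55% and 10.9%), and 4 and 0 with the trends removed (9.67% and 9.71%). Of the 7 members, only Kif3c kept its call under all 3 of these scalings. With only the 2 groups compared, no member was called (Kif3c: log2FC = 0.14, adjusted p = 0.90). No member was called without GFP-naive 2 (440 higher and 1043 lower of the 12629 genes, against 933 and 1984 with all libraries). The split was 0 and 3 without GFP-naive 4 (727 and 1565 of all genes) or GFP-crush 2 (526 and 1394), and 0 and 1 without GFP-crush 1 (596 and 1438). It was 1 and 3 without α9k1-crush 3 (758 and 1613), 2 and 2 without GFP-naive 3 (679 and 1501), and 2 and 3 without GFP-crush 4 (873 and 1767). Without α9k1-naive 6 it was 4 and 3 (978 and 1942). It was 3 and 5 without any one of GFP-crush 3 (990 and 2068), α9k1-naive 4 (791 and 1800) or α9k1-naive 5 (921 and 1982), and 3 and 4 without α9k1-crush 4 (887 and 1921). In the deposited values 7 members were higher without overlap and 5 lower (10 without GFP-crush 2), where 7.59% and 12.2% of all genes were, and after median-centring 7 were higher and none lower, where 12.9% and 7.85% of all genes were. Of 16 neuronal markers 7 were called higher and 1 lower in this comparison. Of 10 satellite glia markers 7 were lower, of 8 endothelial and fibroblast markers 4 lower, of 10 Schwann cell markers 1 higher and 3 lower, and of 10 macrophage markers 7 higher; their part in the result was not tested.

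Within α9k1 neurons, crush was followed by higher levels of 3 kinesins, and no member was called lower, where 4.47% of all genes were called higher and 5.27% lower. Kif5b rose with log2FC = 0.90 ± 0.23 (adjusted p = 0.0328), which is 1.86-fold. It had 7.18 (lowest), 7.38 (median) and 7.55 (highest) in the α9k1-naive libraries and 7.85, 7.81, 7.85 and 8.27 in α9k1-crush 1 to 4, with no overlap. Kif3a rose with 1.02 ± 0.31 (adjusted p = 0.073), from 7.12 ± 0.16 to 7.95 ± 0.04, and Kif1b with 0.78 ± 0.24 (adjusted p = 0.0758), from 5.79 ± 0.17 to 6.50 ± 0.18, both without overlap. These 3 genes had also fallen in α9k1-naive versus GFP-naive; both comparisons use the same α9k1-naive libraries, so that the pair of results is not independent. In GFP neurons their log2FC with crush was 0.10 (Kif5b), 0.17 (Kif3a) and -0.03 (Kif1b), and none was called.

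With only the 2 groups compared, none of the 3 kept its call (adjusted p = 0.428 for Kif5b, 0.338 for Kif3a and 0.515 for Kif1b). Their log2FC in that fit were 1.01, 1.04 and 0.79, and 0.127% of all genes were called higher and 0.143% lower. Kif5b kept its call in 18 of the 19 fits that left out 1 library, Kif1b in 10 and Kif3a in 8. Without α9k1-naive 4 no member was called higher, where 307 of the 12629 genes were. Without α9k1-crush 2 there were 6 members called higher and 3 lower, where 767 and 939 of all genes were, against 565 and 665 with all libraries. Only 1 member was called higher without any one of GFP-naive 1, GFP-naive 3, GFP-naive 5, α9k1-naive 1, α9k1-naive 2, GFP-crush 1, GFP-crush 4 or α9k1-crush 1, where 368 to 538 of all genes were. Without α9k1-naive 3 or α9k1-crush 4 there were 2 (480 and 403 of all genes). Without α9k1-naive 6 there were 4 higher and 1 lower (729 and 829 of all genes). A single member was also called lower without any one of GFP-naive 1, GFP-naive 5, GFP-crush 1, GFP-crush 3 or α9k1-crush 3, where 507 to 623 of all genes were. With quantile normalization (4.45% and 5.40% of all genes), or with the trends of GC content and length removed (4.47% and 5.61%), the split was 3 higher and 1 lower. Of 8 measured markers of endothelial cells and fibroblasts 5 were called higher in α9k1-crush, of 10 Schwann cell markers 7 were higher and 1 lower, of 10 satellite glia markers 6 were lower, and of 10 macrophage markers 2 were higher. Of 16 neuronal markers 4 were called higher and 1 lower, and without covariates 10 were higher and 2 lower. The part of these cells in the result was not tested.

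Without covariates, 30 members of the α9k1 neurons were called higher after crush and 7 lower, where 28.5% and 27.1% of all genes were called. In the deposited values 20 members were higher without overlap and 2 lower (4 without α9k1-crush 2), against 17.4% and 16.1% of all genes. Above all 15 other libraries, the 4 α9k1-crush libraries had 12 members (24.5%), where 6.25% of all genes did. These were Kif5a, Kif3a, Kif1b, Klc1, Klc2, Dync1i1, Dync1li2, Dynlt3, Ndel1, Bicd2, Mapk8ip3 and Rhot2. Below all 15 others were Dync2li1, a light chain of the dynein of cilia, and Dynlt1f, where 5.78% of all genes were. With quantile normalization, median-centring or the removal of the GC and length trends, 11, 9 and 8 members were above all others, as 5.92%, 5.01% and 4.83% of all genes were.

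**Figure D4:**
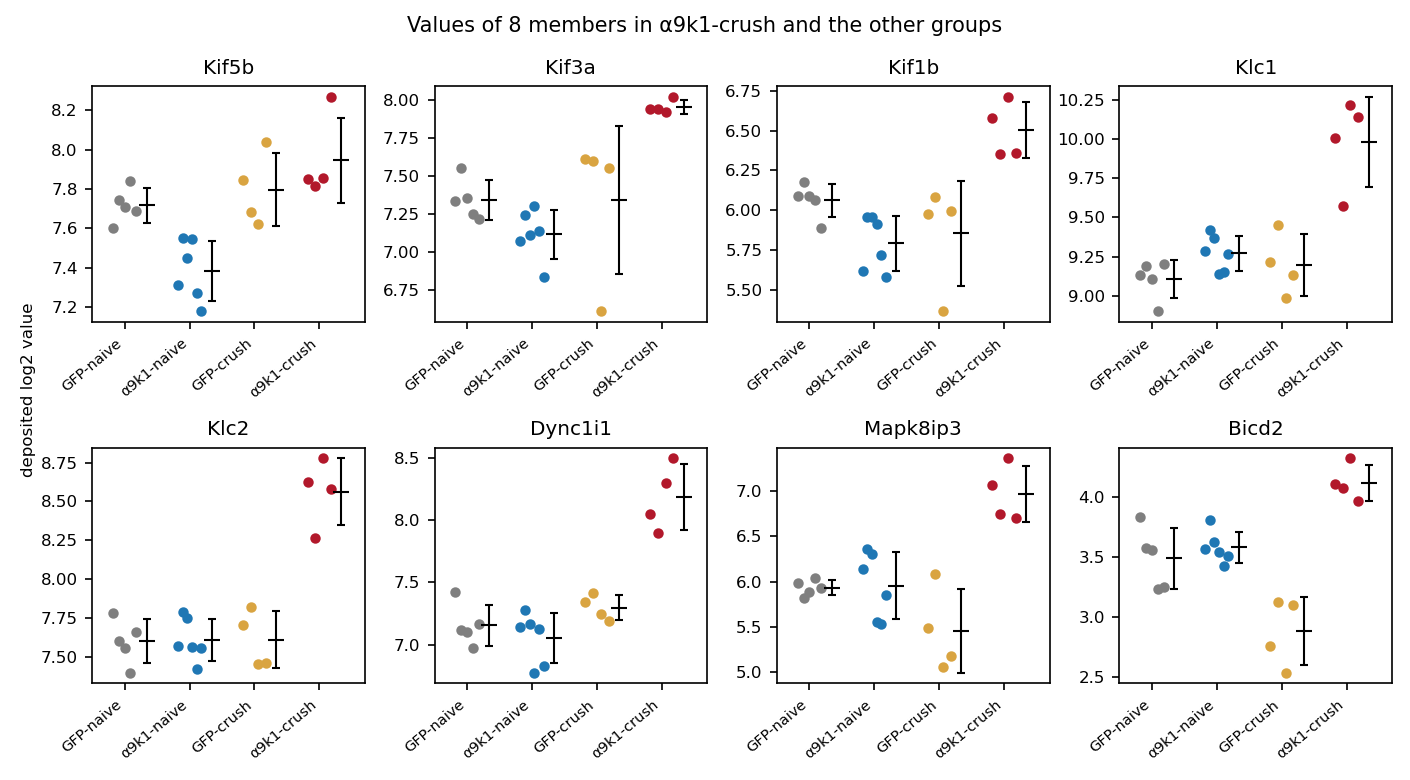
Deposited log2 values of 8 members in each library by group, with the group mean and SD beside the points (n = 5, 6, 4 and 4). The 4 α9k1-crush points lie above all others for Kif3a, Kif1b, Klc1, Klc2, Dync1i1, Mapk8ip3 and Bicd2, and above the α9k1-naive points for Kif5b.

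Klc2 and Dync1i1 show this pattern plainly. Klc2, a light chain of kinesin-1, was at 7.60 ± 0.14, 7.61 ± 0.14 and 7.61 ± 0.18 in GFP-naive, α9k1-naive and GFP-crush and at 8.63, 8.26, 8.78 and 8.58 in α9k1-crush 1 to 4. With covariates its log2FC against α9k1-naive was 0.55 ± 0.23 (adjusted p = 0.178) and against GFP-crush 0.33 ± 0.28 (adjusted p = 0.788). Dync1i1, the neuronal intermediate chain of dynein, was at 7.16 ± 0.16, 7.05 ± 0.20 and 7.30 ± 0.10 in the other groups and at 8.05, 7.90, 8.30 and 8.49 in α9k1-crush 1 to 4. With covariates its log2FC against α9k1-naive was 0.59 ± 0.24 (adjusted p = 0.172) and against GFP-crush 0.17 ± 0.29 (adjusted p = 0.921). Klc1 was at 9.11 ± 0.12, 9.27 ± 0.11 and 9.20 ± 0.20 in the other groups and at 9.98 ± 0.29 in α9k1-crush.

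The interaction of genotype and crush tested whether α9k1 and GFP neurons differed by another amount after crush than without it. No member was called by limma with covariates (1.35% of all genes higher and 0.847% lower), 8 (16.3%) were at an unadjusted p under 0.05, near the 14% of all genes, and 25 higher and 6 lower were called without covariates (23.3% and 16.1% of all genes). Without GFP-naive 1, there was 1 member called lower. The 3 smallest p belonged to estimates of 0.80 ± 0.26 for Kif5b (adjusted p = 0.173), 0.81 ± 0.28 for Kif1b (adjusted p = 0.193) and -0.88 ± 0.30 for Dynlt1f (adjusted p = 0.185). The median log2FC of the interaction was 0.18 over the members and 0.07 over all genes, and after median-centring 0.05 and -0.06.

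Related genes that share a role were compared within each library, where depth is common to both. The quality of a library may act differently on 2 genes. The pairs were not fitted with covariates, and the part of quality in their differences was not tested. In 14 pairs of paralogues, the difference separated α9k1-naive from GFP-naive in 2, and α9k1-crush from GFP-crush in 7. It separated GFP-crush from GFP-naive in 0, and in α9k1-crush versus α9k1-naive it was higher in 3 and lower in 2. Of single genes, 8.43% were higher and 13.2% lower without overlap in α9k1-naive versus GFP-naive, and 20% and 20.8% in α9k1-crush versus GFP-crush. The share for other pairs of genes was not computed, and these counts are descriptions, without a test. Besides Dync1li2 and Dync1li1, Kif5c relative to Kif5b separated in both conditions, at -2.27 ± 0.21 in GFP-naive and -1.81 ± 0.13 in α9k1-naive, and at -2.39 ± 0.26 in GFP-crush and -1.86 ± 0.29 in α9k1-crush. Dync1i1 and Dync1i2 were nearly equal in the naive groups (-0.04 ± 0.07 and -0.12 ± 0.19) and GFP-crush (0.28 ± 0.18), and in α9k1-crush Dync1i1 lay above by 1.09 ± 0.25. Kif1a lay above Kif1b by 0.82 ± 0.27 in α9k1-crush and by 1.64 ± 0.12, 1.60 ± 0.26 and 1.71 ± 0.28 in GFP-naive, α9k1-naive and GFP-crush. Mapk8ip1 lay above Mapk8ip3 in all GFP libraries and below it in all 4 α9k1-crush libraries (1.17 ± 0.48 in GFP-crush and -0.40 ± 0.21 in α9k1-crush). Exons of Mapk8ip3 overlap those of Eme2, Mrps34 and Nme3, which are also measured, so part of its value is uncertain.

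**Figure D5:**
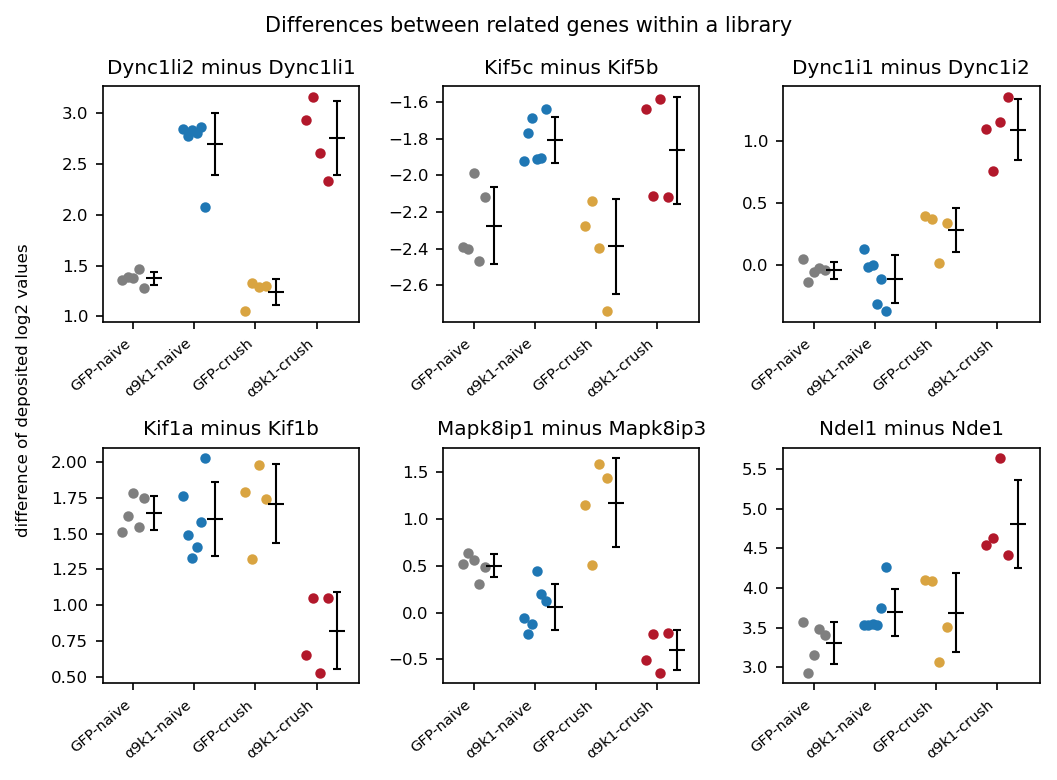
Difference between the deposited log2 values of 2 related genes in the same library, by group, with the mean and SD beside the points (n = 5, 6, 4 and 4). The α9k1 and GFP points do not overlap in either condition for Dync1li2 minus Dync1li1 and for Kif5c minus Kif5b, and the 4 α9k1-crush points stand apart from all other groups for Dync1i1 minus Dync1i2 and for Kif1a minus Kif1b.

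Other genes of axonal transport that the rule does not include, such as further dynactin subunits, hook and JIP adaptors, microtubule end-binding proteins and lysosome adaptors, were read from a list of 59 genes, of which 49 were measured. In α9k1-naive versus GFP-naive 2 rose and 7 fell (median log2FC = -0.05, with Caskin1 lowest at -0.89 and Hook2 highest at 0.52, the latter not called). In α9k1-crush versus GFP-crush none was called (median 0.10). In GFP-crush versus GFP-naive none rose and 8 fell (median -0.03, with Hook3 lowest at -0.83 and Ninl highest at 0.89, the latter not called). In α9k1-crush versus α9k1-naive 2 rose and 2 fell (median 0.12, from -1.22 for Ppfia1 to 1.48 for Ccdc88a, both called). Of all genes, the shares called higher and lower in these 4 comparisons were 11.4% and 17.6%, 0.728% and 0.182%, 7.39% and 15.7%, and 4.47% and 5.27%. Without covariates the counts were 5 and 11, 23 and 7, 2 and 10, and 26 and 8 in the same order. The shares of all genes were then 16.5% and 29.5%, 29.6% and 28.3%, 11% and 20.1%, and 28.5% and 27.1%.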

How the data were processed

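Per the study's methods, STAR was used by the authors to align reads to mm10 (GRCm38, mouse), and Salmon to count genes; they then removed genes with few reads and normalised log2 values with a small pseudocount by the cqn method for gene length and depth; versions are not given in the sources used here. The deposited expression values are therefore on a log2 scale and were used as they are. The authors' Picard metrics per library were deposited as read and base counts, as fractions, as percent values and as coverage or bias ratios. The deposited gene table also holds the authors' fold changes and p-values, which were not used, and gives the gene order of the value table. This order was checked against the authors' pooled mean per gene (r = 0.959 across genes, on the log2 scale).

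All 19 libraries were fitted with limma 3.58.1 in R 4.3.3, with 4 group means and the first 3 principal components of 48 scaled metrics (45.9%, 24.1% and 11.5% of their variance). A batch term of the study's model was not used here. P-values were adjusted by the Benjamini-Hochberg method over 12629 genes, with calls at an adjusted p under 0.1. Differences of the deposited means were tested by an exact permutation test (2-sided), and groups were also compared by whether their values overlapped. Other fits left out the covariates, a library, the other groups or the lowest 25% of genes, added 1 to the linear values, rescaled the libraries, weighted them or added a replicate block. The fit was also run on simulated data, from which nothing is concluded here. Python 3.11.15, pandas 2.3.3, numpy 2.4.6 and SciPy 1.17.1 were used for the summaries.

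Values are named for core subunits and, in each comparison, for at most 6 members with the highest and 6 with the lowest log2FC among those called. The members, role lists and marker lists were chosen with earlier results of these data known. Promoter and transcript sequences come from RefSeq and the GRCm38 annotation.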

Additional observations from a re-analysis of the deposited data

Results flagged for a closer look

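In 13 of 196 combinations of a member and a group, 1 library lay apart from the others of its group by Dixon's test, which chance gives in about 1 of 20 groups. In GFP-crush 3, Kif3a was at 6.61 (7.55 to 7.61 in the others) and Kif1b at 5.37 (5.98 to 6.09). In GFP-crush 2, Kif21a was at 5.91 (5.65 to 5.67) and Zfyve27 at 6.33 (5.95 to 6.00). In α9k1-naive 6, Dynlrb1 was at 9.43 (8.97 to 9.08) and Nde1 at 2.71 (3.44 to 3.76), and in α9k1-naive 3 Dynlt1a was at 3.75 (4.49 to 4.57). In α9k1-crush 4, Kif5b was at 8.27 (7.81 to 7.85) and Dync1li2 at 7.0 (7.16 to 7.18). In α9k1-crush 1 Dync1i2 was at 6.95 (7.14 in the others), and in α9k1-crush 3 Nde1 was at 2.0 (2.83 to 2.90). In GFP-naive 1 Kif21a was at 5.76 (5.93 to 5.97), and in GFP-naive 4 Pafah1b1 was at 5.22 (5.66 to 5.84).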

How the results depend on the processing

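No log2FC of a called member reversed under any alternative; 633 values kept their side of the threshold and 150 lost the call, and the cause was not tested. Without covariates the higher and lower calls of members were 24 and 11 for α9k1-crush versus GFP-crush, 30 and 7 for α9k1-crush versus α9k1-naive, and 25 and 6 for the interaction, and the higher calls for GFP-crush versus GFP-naive were 5. For GFP-crush versus GFP-naive, they were 0 and 0 with only the 2 groups compared, 1 and 0 with quantile normalization, 7 and 0 with median-centred libraries, and 4 and 0 with the GC and length trend removed, and the members lower without overlap were 2, 0 and 0 under these 3 scalings. For α9k1-crush versus α9k1-naive, none was higher with only the 2 groups compared, 5 were higher and 1 lower with array weights, and 1 was lower with quantile normalization, with the GC and length trend removed, and with the lowest 25% of genes removed.

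With 1 library left out, the higher calls ranged from 3 to 5 and the lower from 10 to 13 for α9k1-naive versus GFP-naive. They ranged from 0 to 4 and 0 to 6 for GFP-crush versus GFP-naive (0 to 3 among those outside 1.5 times), and from 0 to 6 and 0 to 3 for α9k1-crush versus α9k1-naive (1 to 3 lower among those with any). Over all genes the ranges in these comparisons were 1130 to 1532 and 1507 to 2416, 440 to 1031 and 1043 to 2132, and 307 to 767 and 381 to 939. For α9k1-crush versus GFP-crush and for the interaction the lower calls ranged from 0 to 1. Members lower without overlap ranged from 5 to 10 for GFP-crush versus GFP-naive and from 2 to 4 for α9k1-crush versus α9k1-naive.

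The replicate numbers do not pair the libraries: of 25 pairs with the same number 4 correlated above 0.1 (range -0.27 to 0.15), and 3 of 19 libraries correlated best with their own number. With a replicate block, 3 members were higher in α9k1-naive versus GFP-naive, and the calls of Klc3, Ndel1, Trak1 (adjusted p = 0.22), Zfyve27 (0.553), Kif5b, Kif3a, Dynll1 and Dynlrb1 were lost; 4 were higher in GFP-crush versus GFP-naive, and 0 were higher and 1 lower in α9k1-crush versus α9k1-naive, where Kif5b had log2FC = 0.45 (adjusted p = 0.46). The deposited values carry no counts, so counting error could not be given, and groups of 4 libraries limit the precision.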
